A study of Homo sapiens with 9 samples.

Results

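The 10 human globin genes of the alpha and beta clusters that encode chains were followed through 9 libraries of strand-specific RNA sequencing. They were taken as the rows of the deposited count table with the symbols HBZ, HBM, HBA2, HBA1 and HBQ1 (alpha-type) and HBE1, HBG2, HBG1, HBD and HBB (beta-type), and all 10 were among its 21229 rows. The RNA came from haematopoietic cells derived from H1, a widely used cell line of human embryonic origin that is pluripotent. There were 3 groups of 3 libraries: CD90+ cells with GATA2 overexpression, CD90+ cells of the control genotype, and CD38+ cells of the control genotype. GATA2 is a zinc finger transcription factor of blood stem and progenitor cells, CD90 is the surface protein made from THY1, and CD38 is a surface enzyme. The 3 groups share the H1 line and the derivation from it, and the GATA2 overexpression and CD90+ control groups share the antigen. How GATA2 was overexpressed, from which promoter, in how many clones and on which day of differentiation is not given in the sources used here. The labels number the replicates but do not say that they came from separate cultures, so p-values measure the spread between these libraries, which may be technical.

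A haemoglobin molecule joins a pair of alpha-type chains to a pair of beta-type chains. The alpha-type genes lie in a cluster on chromosome 16 and the beta-type genes in a cluster on chromosome 11, each in roughly the order in which development uses them. Primitive red cells of the yolk sac use the embryonic chains zeta (HBZ) and epsilon (HBE1), fetal red cells use alpha (HBA1 and HBA2) and gamma (HBG1 and HBG2), and adult red cells use alpha with beta (HBB). Delta (HBD) is the minor adult beta-type chain, found in haemoglobin A2. Mu (HBM) and theta (HBQ1) are transcribed in erythroid cells, with no established place in a haemoglobin.

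Libraries held 37500192 to 39582736 counts with GATA2 overexpression, 42577569 to 47261093 in CD90+ control and 42695005 to 45561088 in CD38+ control cells. Levels are given in CPM, counts scaled to a common library size after multiplying each library size by its TMM factor, which evens out differences in RNA composition. GATA2 itself had 363, 388 and 377 CPM in the overexpression libraries, 86.5, 89.5 and 85.9 CPM in CD90+ control and 551, 576 and 581 CPM in CD38+ control. The overexpression libraries were thus above the CD90+ control, by 4.30-fold (edgeR, adjusted p 1.34e-18), and below CD38+ control. THY1 had 2.80 to 3.56 CPM with GATA2 overexpression, 3.83 to 5.09 CPM in CD90+ control and 0 counts in CD38+ control, and CD38 had 1.74 to 2.76, 4.09 to 4.81 and 119 to 124 CPM in those groups. Replicates of a group were alike, with Spearman correlations across genes of 0.985 to 0.992.

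The clearest difference between the groups was in which beta-type gene took the counts. With GATA2 overexpression HBD held 86.4% ± 0.468 of all beta-type globin counts, against 29.9% ± 0.356 in CD90+ control and 14.1% ± 0.553 in CD38+ control (SD, n = 3 each). HBE1 held 12.2% ± 0.391 with GATA2 overexpression, 65.4% ± 0.409 in CD90+ control and 81.1% ± 0.861 in CD38+ control. HBG2 and HBG1 together held 1.36% ± 0.0728, 4.65% ± 0.0928 and 4.77% ± 0.377 in the same order of groups. HBB held 0.0673% ± 0.0129, 0.0798% ± 0.0263 and 0.0227% ± 0.0230. The beta-type counts of the overexpression libraries were thus mostly delta, and those of both controls mostly epsilon. Because the RNA came from bulk samples, fewer cells of a type and less RNA per cell cannot be told apart in these shares or in any level below.

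**Figure D1:**
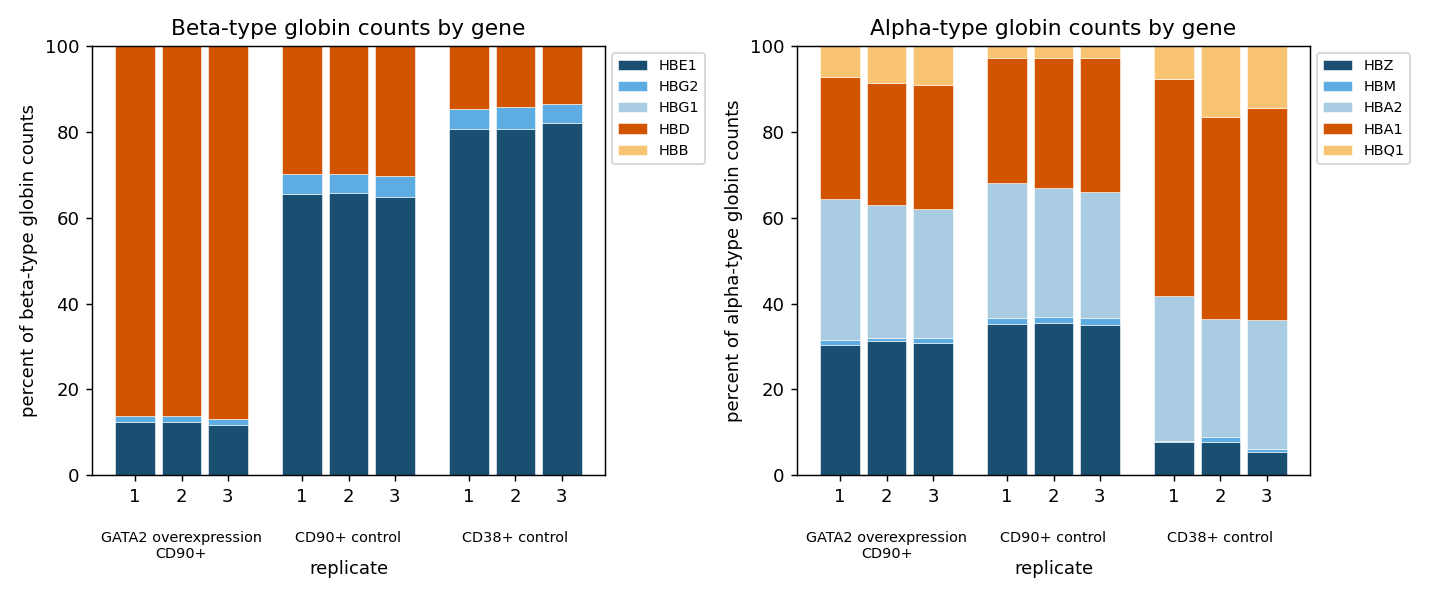
Stacked bars give the percent of beta-type (left) and alpha-type (right) globin counts that each gene took in each library, with replicates 1 to 3 of each group side by side. HBD fills 86.1% to 86.9% of the beta-type bars with GATA2 overexpression, 29.7% to 30.3% in CD90+ control and 13.5% to 14.6% in CD38+ control, and HBZ fills 5.53% to 7.76% of the alpha-type bars in CD38+ control, below both CD90+ groups.

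Shares were compared by an exact permutation test over all assignments of the 9 libraries to 3 groups, with p-values adjusted over 7 shares. The HBE1 share and the share of HBB and HBD together each gave an exact p = 0.00357, the smallest this design allows, and an adjusted p of 0.005. These shares and the gamma share make up all beta-type counts of a library, so their tests are not independent of each other. The share of HBB and HBD was 56.5 percentage points higher with GATA2 overexpression than in CD90+ control, and 15.8 points higher in CD90+ control than in CD38+ control. The HBE1 share differed by -53.2 and -15.7 points in those comparisons. The gamma share gave an exact p = 0.025 (adjusted p 0.025), with a difference of -3.29 points between GATA2 overexpression and CD90+ control and -0.115 points between CD90+ control and CD38+ control. The CD90+ control and CD38+ control libraries overlapped in that share, and the last difference changed sign when counts were divided by exon length (0.0892 points) and without CD38+ control replicate 2 (0.0643 points). Between any 2 groups of 3 an exact two-sided permutation test cannot go below p = 0.1. The 95% Wilson intervals of a library's HBD share reached at most 0.236 points to either side with GATA2 overexpression and 0.753 points in CD38+ control, which covers counting error only.

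Across genes, the quasi-likelihood test of edgeR was fitted to all 9 libraries and 16232 genes, and calls were made where the p, adjusted after Benjamini and Hochberg, was under 0.05. HBG1 had too few counts to enter it, so 9 of the 10 globin genes were tested. Between GATA2 overexpression and CD90+ control, HBD, HBB and HBQ1 rose and HBE1, HBG2, HBZ, HBA1, HBA2 and HBM fell. Of all tested genes, 38.0% were called higher and 39.6% lower in that comparison, so 3 higher calls among 9 are close to the background. The 6 lower calls among 9 are a larger share than that of all genes, and the set was not tested. Between CD90+ control and CD38+ control all 9 were called higher, beside 41.1% of all genes called higher and 39.3% called lower. Between GATA2 overexpression and CD38+ control all 9 were again called higher, beside 43.3% of all genes called higher and 39.9% called lower. The median log2 fold change of the 9 was -0.68, 2.70 and 2.02 in these comparisons, against -0.04, 0.03 and 0.07 over all genes tested. The log2 fold changes of the last comparison were 6.02 for HBD, 4.86 for HBB, 4.11 for HBZ, 2.45 for HBM, 2.02 for HBA2, 1.60 for HBG2, 1.37 for HBQ1, 1.19 for HBA1 and 0.67 for HBE1. The value of HBB became 5.80 without CD38+ control replicate 1, and that of HBM 3.42 without CD38+ control replicate 2. The comparisons share groups and are not independent of each other. With library size alone as the scaling, the median of all genes moved to -0.29, 0.44 and 0.23, and the share of calls that were higher to 35.6%, 71.2% and 58.0%, against 49.0%, 51.2% and 52.1% with TMM factors. The 9 globin calls of the first comparison kept their direction under that scaling.

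**Figure D2:**
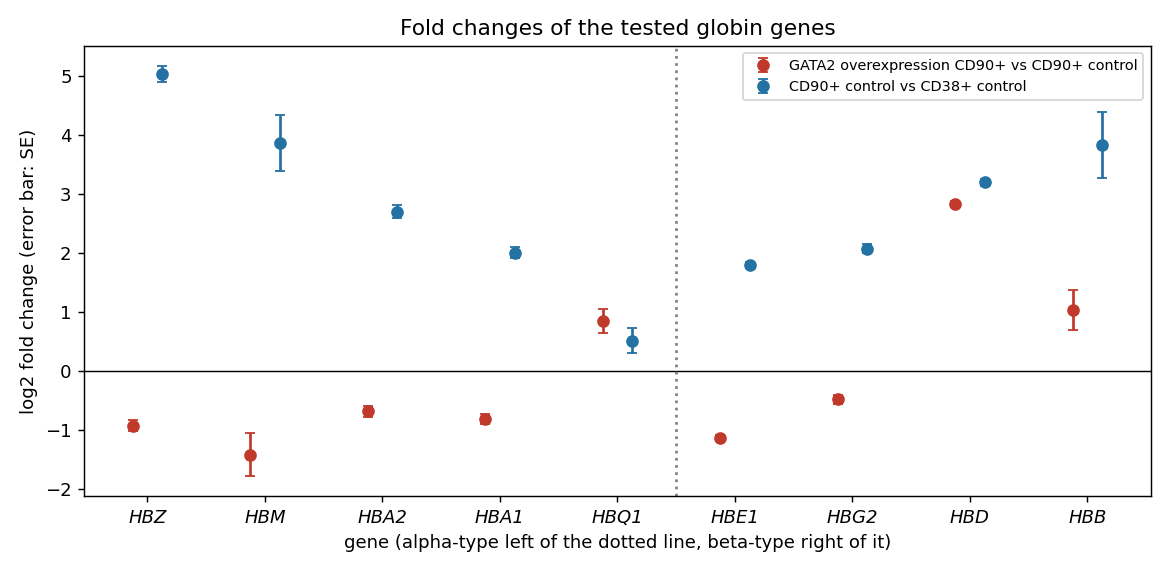
Points give the log2 fold change of each tested globin gene and bars its standard error, for GATA2 overexpression CD90+ against CD90+ control and for CD90+ control against CD38+ control. HBD is high in both comparisons, at 2.82 and 3.19, while HBE1, HBG2, HBZ, HBA1, HBA2 and HBM lie below 0 in the first and above 0 in the second.

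HBD, the delta gene (ENSG00000223609.9; chr11:5232838-5234483, minus strand, RefSeq on GRCh38), stood at 2300.4, 1889.5 and 1997 CPM in the 3 GATA2 overexpression libraries. It stood at 294, 286 and 294 CPM in CD90+ control and at 33.8, 31.4 and 30.4 CPM in CD38+ control. Every overexpression library was above every CD90+ control library, and every CD90+ control library above every CD38+ control library. HBD rose 7.08-fold with GATA2 overexpression over CD90+ control (log2 fold change 2.82, SE 0.05, adjusted p 2.82e-17), the 54th largest log2 fold change of 16232. It was 9.15-fold higher in CD90+ control than in CD38+ control (log2 fold change 3.19, SE 0.06, adjusted p 2.44e-17), and 64.8-fold higher with GATA2 overexpression than in CD38+ control (log2 fold change 6.02). Under 18 other settings the first of these log2 fold changes lay between 2.58 and 2.89.

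The 250 bases upstream of the HBD start are shown because delta rose most of the globin genes with GATA2 overexpression and is the only beta-type globin gene matched in the RefSeq promoter table (GRCh38.p14), which also holds HBM. The window is chr11:5234484-5234733 on the minus strand, written 5′ to 3′, with CCAAT and TTATC, the reverse complement of GATAA, in capitals.
HBD promoter: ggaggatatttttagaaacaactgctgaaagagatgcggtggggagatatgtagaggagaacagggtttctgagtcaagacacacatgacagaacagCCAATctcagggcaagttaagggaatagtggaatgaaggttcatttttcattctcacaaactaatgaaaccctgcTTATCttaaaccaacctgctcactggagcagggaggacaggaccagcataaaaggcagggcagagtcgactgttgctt
Five-letter and six-letter motifs were searched on both strands, and the 2 marked matches do not overlap. CCAAT lies 153 to 149 bases before the start and is in 32.0% of the 35116 promoter windows of this length. GATAA, the core of sites for GATA factors, lies on the opposite strand 78 to 74 bases before the start and is in 20.4% of windows. CACCC, the core of boxes for KLF factors, has no match in these letters and is in 54.7% of windows. TATAA, in 18.9%, and TGACCA, the core bound by BCL11A, in 9.19%, have none either.

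HBE1, the embryonic epsilon gene (chr11:5268345-5269945, minus strand), had 331, 272 and 269.6 CPM with GATA2 overexpression, 648, 633 and 629 CPM in CD90+ control and 186, 178 and 184 CPM in CD38+ control. The overexpression libraries lay between the controls, with no overlap. HBE1 fell by 1.13 on the log2 scale (SE 0.05, adjusted p 4.44e-12), a level 2.19-fold lower with GATA2 overexpression than in CD90+ control. In CD90+ control it was 3.48-fold higher than in CD38+ control, and with GATA2 overexpression 1.59-fold higher than in CD38+ control. Set against each other in the same library, there were 7.10 ± 0.271 HBD counts per HBE1 count with GATA2 overexpression, 0.458 ± 0.0083 in CD90+ control and 0.174 ± 0.00856 in CD38+ control (SD, n = 3 each). HBD counts thus outnumbered HBE1 counts in the overexpression libraries only, among these 9, and the same held with counts divided by exon length. HBE1 exons overlap those of another gene on the same strand over 90.01% of their length, against 6.93% for HBD. Reads lost to such overlap could lower the HBE1 counts, and their part in this ratio was not tested.

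The fetal gamma genes were low. HBG2 (chr11:5253188-5254781, minus strand) had 36.5, 31.3 and 29.5 CPM with GATA2 overexpression, 46.2, 43.7 and 45.8 CPM in CD90+ control and 11.1, 11.3 and 9.81 CPM in CD38+ control. The groups did not overlap, and CD90+ control was the highest. HBG2 fell by 0.48 on the log2 scale with GATA2 overexpression relative to CD90+ control (SE 0.07, adjusted p 9.67e-06), the smallest size of change among the tested globin genes in that comparison. HBG2 was 4.22-fold higher in CD90+ control than in CD38+ control, beside 3.48-fold for HBE1, and the HBG2 count per HBE1 count was 0.112 with GATA2 overexpression, 0.0710 in CD90+ control and 0.0587 in CD38+ control. HBG1 had 5, 1 and 2 counts with GATA2 overexpression, 9, 9 and 3 in CD90+ control and 2, 1 and 1 in CD38+ control. Fitted without the filter on low counts, HBG1 gave adjusted p-values of 0.435, 0.132 and 0.482, so no difference was detectable at this depth. HBG1 and HBG2 share sequence, and summed to 1 row they gave log2 fold changes of -0.48 and 2.08 in the first 2 comparisons.

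HBB, the adult beta gene (chr11:5225464-5227071, minus strand), was close to absent. It had 64, 68 and 49 counts with GATA2 overexpression (1.65, 1.80 and 1.33 CPM), 50, 48 and 24 counts in CD90+ control (0.982, 0.871 and 0.483 CPM), and 4, 0 and 2 counts in CD38+ control. The groups did not overlap. HBB was 2.04-fold higher with GATA2 overexpression than in CD90+ control (log2 fold change 1.03, SE 0.34, adjusted p 0.0113), and this call was lost without CD90+ control replicate 3 (log2 fold change 0.79, adjusted p 0.0590). It was 14.2-fold higher in CD90+ control than in CD38+ control (log2 fold change 3.83, adjusted p 7.88e-06), a log2 value that became 4.77 without CD38+ control replicate 1. Summed over each group there were 1292 HBD counts per HBB count with GATA2 overexpression and 372 in CD90+ control, while the 6 HBB counts of CD38+ control are too few for a ratio. In adult red cells the order of these chains is the reverse, with beta the main chain and delta the minor one.

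**Figure D3:**
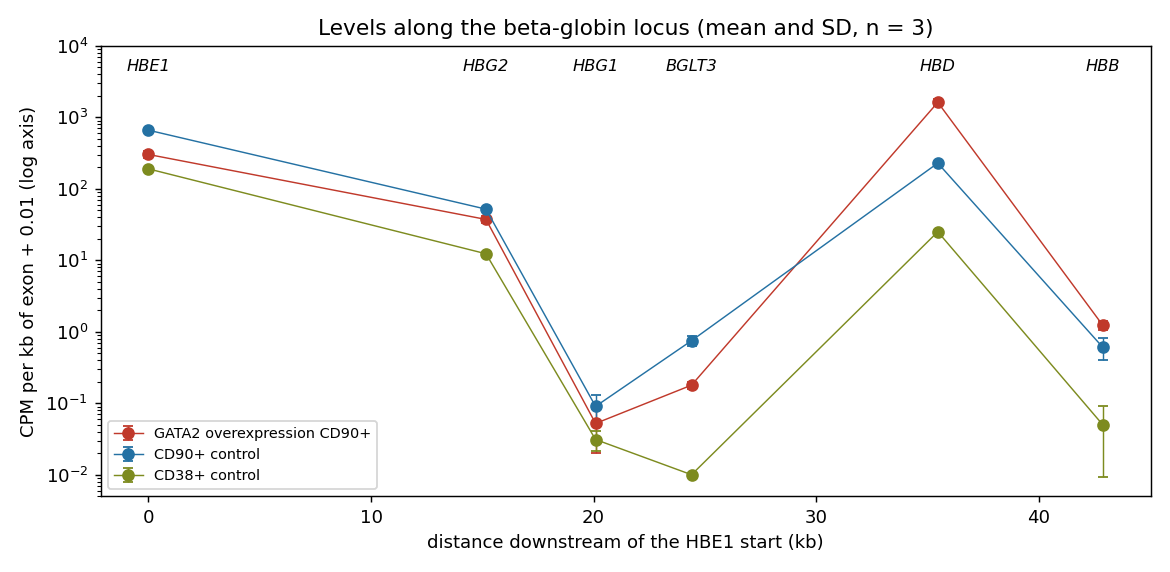
The mean level of each gene of the beta-globin cluster is plotted against its distance downstream of the HBE1 start, as CPM per kilobase of exon plus 0.01 on a log axis, with SD bars (n = 3). HBE1 and HBD are the 2 highest points in every group, HBG2 comes next, and HBG1, BGLT3 and HBB between and beyond them are low.

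Along the chromosome 11 cluster, HBE1 and HBD are separated by both gamma genes. Counted downstream from the HBE1 start, HBG2 begins 15.2 kb away, HBG1 20.1 kb, the noncoding RNA gene BGLT3 24.4 kb, HBD 35.5 kb and HBB 42.9 kb. BGLT3, which was looked up after the globin values had been seen, had 6, 6 and 7 counts with GATA2 overexpression, 37, 34 and 43 in CD90+ control and 0 in each CD38+ control library. It was 4.32-fold lower with GATA2 overexpression than in CD90+ control (log2 fold change -2.11, SE 0.45, adjusted p 5.60e-04), while HBD, the next downstream of the genes just listed, rose. Against a floor of 3 counts over the CD38+ control group, BGLT3 was at least 28.1-fold higher in CD90+ control.

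In the alpha-type cluster HBQ1 was the only gene that rose with GATA2 overexpression relative to CD90+ control, while the others fell, as HBE1 and HBG2 did. HBZ, the embryonic zeta gene (chr16:152644-154503, plus strand), had 13.4, 14.9 and 13.8 CPM with GATA2 overexpression, 27.1, 26.3 and 26.1 CPM in CD90+ control and 0.984, 0.882 and 0.576 CPM in CD38+ control. The groups were well apart. HBZ was 1.89-fold lower with GATA2 overexpression than in CD90+ control (log2 fold change -0.92, SE 0.09, adjusted p 8.06e-08). In CD90+ control it was 32.6-fold higher than in CD38+ control (log2 fold change 5.03, SE 0.13), the largest fold change among the tested globin genes in that comparison. HBM, mu (chr16:165978-166764, plus strand), had 20, 13 and 17 counts with GATA2 overexpression, 63, 60 and 60 in CD90+ control and 1, 6 and 2 in CD38+ control. The groups did not overlap, though CD38+ control was close to 0. HBM was 2.66-fold lower with GATA2 overexpression than in CD90+ control (adjusted p 0.00193) and 14.5-fold higher in CD90+ control than in CD38+ control (log2 fold change 3.86), a log2 value that became 4.83 without CD38+ control replicate 2.

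HBA2 (chr16:172876-173710, plus strand) and HBA1 (chr16:176680-177522, plus strand) encode the alpha chain used in fetal and adult life. HBA2 had 14.6, 14.7 and 13.4 CPM with GATA2 overexpression, 24.2, 22.3 and 21.9 CPM in CD90+ control and 4.28, 3.15 and 3.13 CPM in CD38+ control. HBA1 had 12.5, 13.4 and 12.9 CPM with GATA2 overexpression, 22.6, 22.4 and 23.3 CPM in CD90+ control and 6.41, 5.43 and 5.16 CPM in CD38+ control. Both genes thus ranked the groups alike and without overlap. Summed to 1 row, since their transcripts are near-identical, they fell by 0.74 on the log2 scale with GATA2 overexpression relative to CD90+ control (SE 0.07, adjusted p 3.14e-08), and were 4.96-fold higher in CD90+ control than in CD38+ control. The HBA2 count per HBA1 count was 1.10 ± 0.0636 with GATA2 overexpression, 1.002 ± 0.0687 in CD90+ control and 0.619 ± 0.0446 in CD38+ control (SD, n = 3 each).

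HBQ1, theta (chr16:180459-181179, plus strand), had 3.23, 4.13 and 4.02 CPM with GATA2 overexpression, 2.08, 2.10 and 2.13 CPM in CD90+ control and 0.984, 1.92 and 1.502 CPM in CD38+ control. It rose 1.80-fold with GATA2 overexpression over CD90+ control (log2 fold change 0.85, SE 0.20, adjusted p 0.00120). The 1.43-fold difference between CD90+ control and CD38+ control (adjusted p 0.0376) did not hold without CD38+ control replicate 1 (log2 fold change 0.30, adjusted p 0.190), without CD38+ control replicate 3 (0.0644), or without CD90+ control replicate 1 (0.0639), 2 (0.0697) or 3 (0.0747).

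As shares of the alpha-type counts, HBZ held 30.8% ± 0.549 with GATA2 overexpression, 35.2% ± 0.243 in CD90+ control and 6.97% ± 1.25 in CD38+ control (SD, n = 3 each; exact permutation p = 0.00357 over the 3 groups, adjusted p 0.005). HBA1 and HBA2 together held 59.9% ± 1.25, 60.4% ± 0.187 and 79.4% ± 4.99 in those groups (exact permutation p = 0.0143, adjusted p 0.0167). The alpha share differed by -0.586 points between GATA2 overexpression and CD90+ control, where the libraries overlapped (exact permutation p = 0.4). Taken apart, HBA1 held 28.5% ± 0.391, 30.2% ± 1.02 and 49.0% ± 1.82 of the alpha-type counts in those groups, and HBA2 31.3% ± 1.49, 30.2% ± 1.06 and 30.4% ± 3.23, so the higher alpha share of CD38+ control lay in the counts given to HBA1, whose reads may be split with HBA2. HBQ1 held 8.34% ± 0.917, 2.80% ± 0.0886 and 12.9% ± 4.63, and HBM 0.976% ± 0.228, 1.56% ± 0.0829 and 0.693% ± 0.618. The HBZ share thus differed by -4.37 points between GATA2 overexpression and CD90+ control, without overlap. In that comparison the HBE1 share of the beta-type counts differed by -53.2 points. The levels of both genes fell more alike, 1.89-fold for HBZ and 2.19-fold for HBE1. HBA1 and HBA2 fell with HBZ in the alpha-type total, while HBD rose 7.08-fold in the beta-type total. Shares in CD38+ control rest on 416 to 477 alpha-type counts a library, with Wilson intervals of up to 2.52 points to either side for HBZ and 4.11 points for HBA1 and HBA2.

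**Figure D4:**
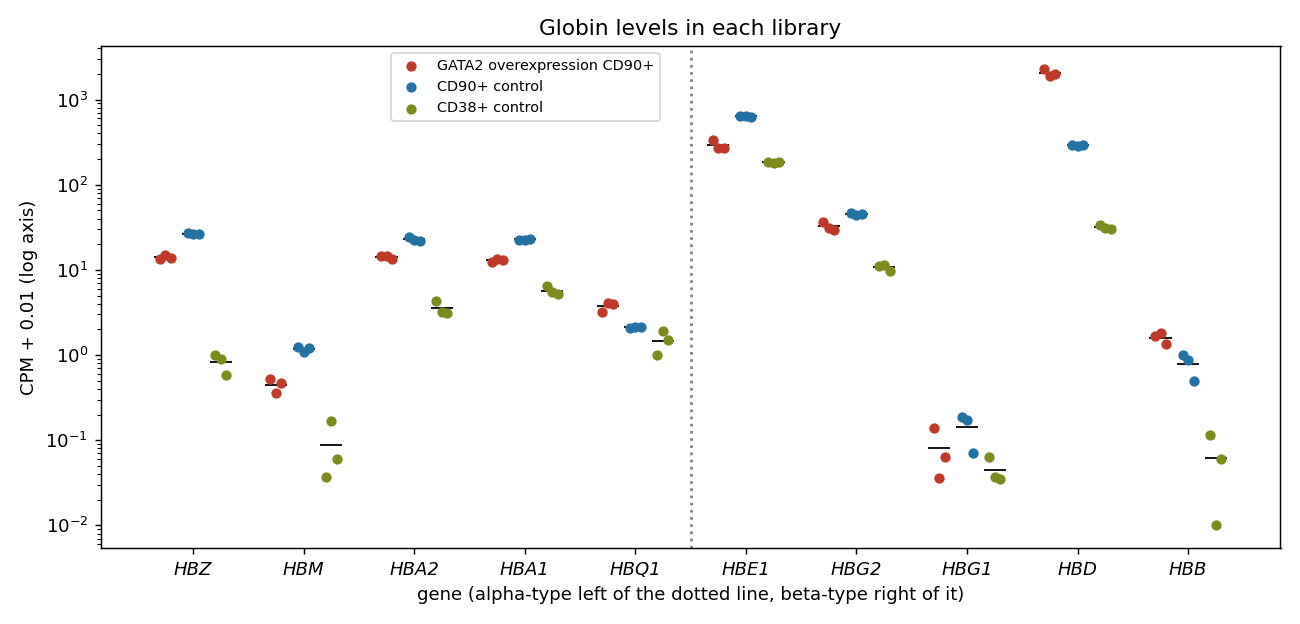
Each point is 1 library, placed by its level in CPM plus 0.01 on a log axis, with a line at the group mean and with alpha-type genes left and beta-type genes right of the dotted line. HBD spans 30.4 to 2300.4 CPM across the 9 libraries and no alpha-type gene passes 27.1 CPM.

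Alpha-type counts were few beside beta-type counts in every library. They made up 1.88% ± 0.245 of all globin counts with GATA2 overexpression, 7.18% ± 0.0505 in CD90+ control and 4.86% ± 0.393 in CD38+ control (SD, n = 3 each; exact permutation p = 0.00357, adjusted p 0.005). With counts divided by exon length the share with GATA2 overexpression was 2.93%, against 9.15% in CD90+ control and 6.15% in CD38+ control. Summed over the group there were 5147 alpha-type and 270821 beta-type counts with GATA2 overexpression, 11734 and 151661 in CD90+ control, and 1325 and 25949 in CD38+ control. All 10 genes together took 0.238% ± 0.0239 of all counts with GATA2 overexpression, 0.122% ± 0.00133 in CD90+ control and 0.0208% ± 0.000523 in CD38+ control (exact permutation p = 0.00357, adjusted p 0.005). Between GATA2 overexpression and CD90+ control the beta-type genes rose in sum, at 0.234% against 0.113% of all counts. The alpha-type genes were at 0.00445% with GATA2 overexpression and 0.00877% in CD90+ control. Within the beta-type sum the rise lay almost wholly in HBD, with 233911 against 45335 counts over the group. HBB had 181 against 122, while HBE1 had 33039 against 99150 and HBG2 3682 against 7033.

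Per kilobase of exon, the order of the genes with GATA2 overexpression was HBD at 1624 CPM per kb, HBE1 at 303 and HBG2 at 37.3. Exon length here is all bases covered by any annotated transcript of a gene, so close ranks depend on the annotation. HBZ at 18.6 and HBA2 at 17.2 overlapped between libraries, and HBA1 at 15.5, HBQ1 at 7.08, HBB at 1.22, HBM at 0.481 and HBG1 at 0.0422 followed without overlap between neighbours. In CD90+ control HBE1 came first at 662 CPM per kb, then HBD at 229, HBG2 at 52.0 and HBZ at 35.1, with HBA2 at 27.6 and HBA1 at 27.3 overlapping. HBQ1 at 3.93, HBM at 1.29, HBB at 0.597 and HBG1 at 0.0804 were the lowest there. In CD38+ control HBE1 at 190.4 CPM per kb, HBD at 25.1 and HBG2 at 12.3 led, ahead of HBA1 at 6.78, HBA2 at 4.26, HBQ1 at 2.74 and HBZ at 1.08. HBM, HBB and HBG1 had under 0.1 CPM per kb in CD38+ control and overlapped. HBE1, HBD and HBG2 were thus the first 3 genes in each group, with HBD ahead of HBE1 with GATA2 overexpression and behind it in both controls.

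Reads of several of these genes could have been dropped or given to another gene. In GENCODE 29 transcripts, 78.5% of the 150-base words of HBA1 also occur in HBA2, 50.5% of those of HBG2 and 57.7% of those of HBE1 occur in another gene, chiefly in transcripts of the same cluster, and so do 34.3% of those of HBZ. No such word of HBD, HBB or HBQ1 occurs elsewhere. Exons of HBE1 overlap those of another gene on the same strand over 90.01% of their length, HBG2 over 57.3%, HBM over 44.8%, HBZ over 27.2%, HBG1 over 13.1% and HBD over 6.93%. Of those other genes, AC104389.4, AC104389.5, OR51B5, HBZP1 and the pseudogene HBBP1 have no row under these symbols in the count table, so they could not be analysed. The part of this sharing in the shares above was not tested.

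Genes with profiles most like the globin profiles were found by Euclidean distance between centred log2(CPM + 1) values over the 9 libraries, among 10614 genes of at least 5 CPM. For HBE1 these were KRT8, a keratin (0.257), FRMD4B (0.260) and KANK2 (0.276). For HBZ they were KDR, the endothelial receptor for vascular endothelial growth factor (0.352), ADGRL2 (0.422) and COL5A1, a fibrillar collagen chain (0.429). For HBG1 and HBG2 summed they were GRAP2 (0.286), MEF2C, a transcription factor (0.353), and MASP1 (0.459), and for all 10 globin genes summed NME4 (0.295), TMEM97 (0.351) and BEX1 (0.365). KRT8, for example, had 171 ± 0.810 CPM with GATA2 overexpression, 368 ± 5.46 in CD90+ control and 104 ± 3.38 in CD38+ control (SD, n = 3 each).

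Among 44 regulators of globin genes, 25 had a higher and 14 a lower level by that test with GATA2 overexpression than in CD90+ control, with a median log2 fold change of 0.27 against -0.04 over all genes, of which 38.0% were higher and 39.6% lower. With library size alone as the scaling, 18 were higher and 19 lower, where 35.6% of all calls were higher. Between CD90+ control and CD38+ control 17 regulators were higher and 17 lower, with a median of 0.06, beside 41.1% and 39.3% of all genes, so these counts are close to the background. By library size alone 31 were higher and 9 lower there, where 71.2% of all calls were higher. KLF1, an activator of HBB and of BCL11A, had 25.2, 27.1 and 25.7 CPM with GATA2 overexpression, 7.21, 6.62 and 7.17 CPM in CD90+ control and 2.21, 2.78 and 2.43 CPM in CD38+ control, a 3.72-fold rise over CD90+ control (adjusted p 5.55e-12). BCL11A, a repressor of the gamma genes, had 31.1, 31.1 and 33.9 CPM with GATA2 overexpression, 16.8, 16.8 and 17.4 CPM in CD90+ control and 4.63, 5.45 and 4.73 CPM in CD38+ control, a 1.89-fold rise over CD90+ control (adjusted p 2.66e-09). Both stood in the same order of groups as HBD, as did other named genes such as MYB, RHAG and CA2, and a link with HBD was not tested.

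GATA1, the GATA factor of red cell maturation, averaged 264 ± 7.32 CPM with GATA2 overexpression, 66.6 ± 3.27 in CD90+ control and 187 ± 8.02 in CD38+ control (SD, n = 3 each; log2 fold change 1.98 in the first comparison). MYB, a factor of erythroid progenitors, averaged 238 ± 4.77, 67.8 ± 2.15 and 53.8 ± 1.23 CPM (log2 fold change 1.81). The gamma repressor ZBTB7A averaged 24.8 ± 1.21, 43.8 ± 0.990 and 61.6 ± 2.41 CPM and fell by 0.82 with GATA2 overexpression relative to CD90+ control. SOX6, which silences an embryonic globin gene in mice, fell by 1.34, at 1.90 ± 0.370, 4.81 ± 0.640 and 1.23 ± 0.148 CPM. TAL1, a partner of GATA factors, was called higher by 0.24 in that comparison, a call that library size alone did not give (-0.01). LIN28B, an RNA-binding protein of fetal blood, was not called there (0.10, adjusted p 0.171). Of the 2 related fetal RNA-binding proteins, IGF2BP1 was called higher by 0.30, which library size alone did not give (0.05), and IGF2BP3 fell by 0.49.

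**Figure D5:**
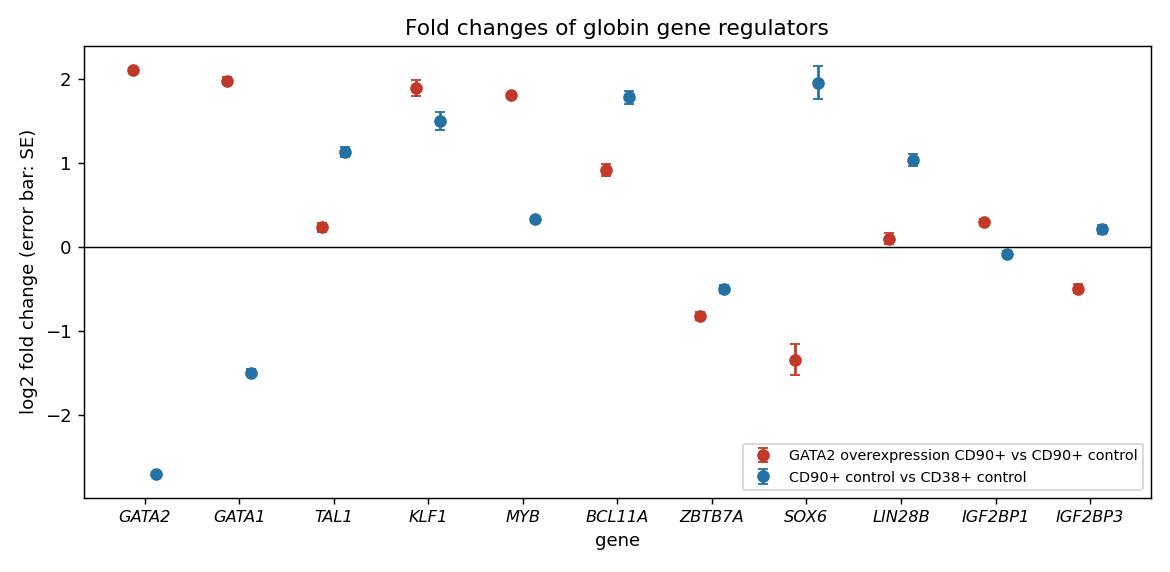
Points give the log2 fold change of 11 regulators and bars the standard error, for GATA2 overexpression CD90+ against CD90+ control and for CD90+ control against CD38+ control. GATA2 and GATA1 are opposite in the comparisons (2.11 and -2.70, 1.98 and -1.49), while KLF1 and BCL11A are above 0 in both.

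Of 25 tested erythroid markers, 8 were higher and 10 lower with GATA2 overexpression than in CD90+ control (median -0.32), near the background of 38.0% and 39.6% of all genes. By library size alone 7 of them were higher and 13 lower, where 35.6% of all calls were higher. Between CD90+ control and CD38+ control 19 of them were higher and 2 lower (median 1.21), beside 41.1% and 39.3% of all genes. RHAG, the Rh-associated membrane protein, averaged 107 ± 5.14 CPM with GATA2 overexpression, 44.8 ± 0.976 in CD90+ control and 4.90 ± 0.269 in CD38+ control (SD, n = 3 each; log2 fold change 1.26 in the first comparison). ALAS2, the erythroid enzyme of the first step of heme synthesis, averaged 20.6 ± 1.18, 43.4 ± 1.31 and 6.97 ± 0.818 CPM and fell by 1.08. CA2, a carbonic anhydrase, averaged 192 ± 2.38, 96.0 ± 5.35 and 42.0 ± 0.871 CPM (log2 fold change 0.998).

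Of 13 genes of heme synthesis, 10 were higher and 1 lower with GATA2 overexpression than in CD90+ control (median 0.34), beside 38.0% and 39.6% of all genes. By library size alone 7 were higher and 4 lower, where 35.6% of all calls were higher. UROD averaged 362 ± 9.72 CPM with GATA2 overexpression and 183 ± 1.28 in CD90+ control (SD, n = 3 each; log2 fold change 0.99), and UROS 152 ± 3.77 and 77.8 ± 1.46 (0.97). ALAS1, the general form of the first enzyme, averaged 118 ± 1.91 CPM in CD90+ control and 474 ± 13.4 in CD38+ control and fell by 2.004 on the log2 scale between them. AHSP, the chaperone of free alpha chains, had 4.18, 3.44 and 2.61 CPM with GATA2 overexpression, 6.03, 6.20 and 6.06 CPM in CD90+ control and 0 counts in each CD38+ control library. AHSP fell by 0.84 with GATA2 overexpression relative to CD90+ control (SE 0.18, adjusted p 5.71e-04), as the alpha-type genes other than HBQ1 did. Against a floor of 3 counts over the CD38+ control group it was at least 234-fold higher in CD90+ control. AHSP is 1 of 7 listed chaperone and redox partners, of which 3 were higher and 4 lower with GATA2 overexpression than in CD90+ control, with 38.0% and 39.6% of all genes so called.

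Of 3 other globin-family genes in the table, 0 were higher and 2 lower with GATA2 overexpression than in CD90+ control, against 38.0% and 39.6% of all genes. MB, myoglobin, averaged 0.478 ± 0.103 CPM with GATA2 overexpression and 1.40 ± 0.277 in CD90+ control (log2 fold change -1.55), ADGB, androglobin, 0.0793 ± 0.0258 and 0.592 ± 0.117 (-2.85), and CYGB, cytoglobin, 3.55 ± 0.506 and 3.0002 ± 0.173 (SD, n = 3 each; 0.24, adjusted p 0.215).

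Markers of red cells and of other cell types differed between the groups as well. The summed level of 10 erythroid markers was 368 to 402 CPM with GATA2 overexpression, 350.0 to 353 in CD90+ control and 159 to 166 in CD38+ control, and between the CD90+ groups 3 of the 10 were higher and 4 lower with GATA2 overexpression. Summed megakaryocyte markers (8 genes) were at 3864 to 3966, 2449.7 to 2484 and 525 to 530.3 CPM in those groups. Monocyte and macrophage markers (10 genes) were at 222 to 244, 1771 to 1801 and 887 to 943 CPM, with VCAM1 at 0 in CD38+ control, and mast cell and eosinophil markers (9 genes) at 540 to 597, 166 to 172 and 5323 to 5550 CPM. Mesenchymal markers (6 genes) were at 255 to 272, 1073 to 1090 and 14.0 to 15.2 CPM, endoderm markers (5 genes) at 72.8 to 82.1, 239 to 243 and 2.91 to 3.004 CPM, and endothelial markers (6 genes) at 696 to 746, 410 to 421 and 420 to 447 CPM. In counts of calls between GATA2 overexpression and CD90+ control, 0 of 9 tested monocyte and macrophage markers, 0 of 6 mesenchymal and 0 of 5 endoderm markers were higher and all of these were lower, while 9 of 9 mast cell and eosinophil markers were higher, beside 38.0% of all genes higher and 39.6% lower. In the same comparison 5 megakaryocyte markers were higher and 1 lower, 5 endothelial markers higher and 1 lower, 2 granulocyte markers higher and 1 lower, and 3 pan-haematopoietic markers higher and 3 lower. Granulocyte markers (5 genes) were at 2022 to 2277, 1331 to 1372 and 2373 to 2395 CPM. The pan-haematopoietic markers (6 genes), which include PTPRC, were at 957 to 1026, 1546 to 1555 and 4239 to 4453 CPM, and 3 pluripotency genes at 56.5 to 61.3, 55.8 to 57.0 and 7.71 to 8.77 CPM, with POU5F1 at 0 in the GATA2 overexpression and CD38+ control groups. Monocyte and macrophage, mesenchymal and endoderm markers were thus highest in CD90+ control, the group in which HBE1, HBG2, HBZ, HBA1, HBA2 and HBM were also highest. The part of those markers in the globin differences was not tested.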

How the data were processed

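Per the labels' protocols, the libraries keep the strand and were read from both ends. The authors deposited 1 table of whole-number counts, with a row for each gene symbol and a column for each of 9 libraries. The tools HISAT2 and featureCounts and the build hg38 are named in the submitters' processing notes. Their versions, the annotation, the strand setting and the treatment of reads with several matches were not given in the sources used here. Such reads may be dropped or split between HBA1 and HBA2, HBG1 and HBG2, or genes with overlapping exons, which could change the shares.

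From these counts, edgeR 4.0.16 (R 4.3.3) gave the quasi-likelihood test on 3 group means over all 9 libraries, with TMM factors and filterByExpr (minimum count 10, minimum total 15). The biological coefficient of variation was 6.72%. Standard errors were log2 fold changes divided by the square root of F. Shares per library were counts of a gene over all alpha-type or beta-type counts, with 95% Wilson intervals. Intervals and the floor of 3 counts allow for counting error alone, because PCR copies of a molecule cannot be recognised without identifiers. The fit was first tested on simulated data, with known changes in 200 genes. Far fewer genes changed there than were called in these data, so that test does not check the scaling.

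Replicate libraries differed by a chi-square of 3.96 to 7.84 per degree of freedom, so each counted as 1 sample. Named genes were all 10 globin genes, 11 regulators, AHSP, the 2 genes of lowest adjusted p per comparison in the erythroid, heme and other globin lists, and the 3 nearest profiles. The members and 15 lists were chosen with earlier results of these data known. Of 152 listed symbols, 147 were in the table. Exon lengths are the bases covered by any exon of a gene in GENCODE 29, which holds 99.8% of the symbols. They can exceed the length of a single transcript, and unequally between genes. Alternatives included DESeq2 1.42.0 and limma 3.58.1 (voom).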

Additional observations from a re-analysis of the deposited data

How the results depend on the processing

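The numbers of globin genes called were 2 to 3 higher and 5 to 6 lower for GATA2 overexpression against CD90+ control over 18 alternatives, 8 to 9 higher and 0 lower for CD90+ control against CD38+ control, and 8 to 9 higher and 0 lower for GATA2 overexpression against CD38+ control. The alternatives were RLE size factors, library size alone, no filter, at least 1 CPM in 3 libraries, DESeq2, limma voom, only the groups compared, a replicate block, HBA1 with HBA2 and HBG1 with HBG2 summed, and leaving out each library. The summed pairs give 1 gene fewer by construction. A denominator with globin pseudogenes was not run. Same-numbered libraries of different groups did not deviate together (correlations of -0.05 to 0.02), so no effect shared by a replicate number was seen. These correlations cannot show whether same-numbered libraries were made together. With the replicate block 3 globin genes remained higher and 6 lower in the first comparison. The share of HBA1 and HBA2, with differences of -0.586 and -18.9 points, gave an exact permutation p of 0.0556 over the 3 groups within replicate numbers, and the gamma share, with -3.29 and -0.115 points, gave 0.0833. The gamma difference between CD90+ control and CD38+ control became 0.0892 points with counts per exon length and ranged between -0.311 and 0.0643 points on leaving out a library, and the cause was not tested. By library size alone, TAL1 (-0.012), LIN28B (-0.15) and CYGB (-0.0074) reversed between GATA2 overexpression and CD90+ control, and IGF2BP1 (0.33) and UROS (0.26) between CD90+ control and CD38+ control, where that scaling moves the median of all genes. The depth limits HBG1, HBB and HBM, which had 1 to 9, 0 to 68 and 1 to 63 counts a library.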

Other observations

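Among the 10614 genes of at least 5 CPM, HBD had none as near to its profile as HBE1, HBZ and the gamma genes had to theirs, a search added after the values had been seen. The distance was not scaled, so it depends on the size of the differences between groups as well as on their pattern. That size was large for HBD, with a log2 fold change of 6.02 between GATA2 overexpression and CD38+ control. Larger distances therefore do not show that its pattern was unmatched. Its nearest by the same Euclidean distance were NCR2, a receptor of natural killer cells (1.05), GAD1, a glutamate decarboxylase (1.25), and ALDH1A1, an aldehyde dehydrogenase (1.38). NCR2 averaged 133 ± 2.67 CPM with GATA2 overexpression, 10.5 ± 1.01 in CD90+ control and 0.394 ± 0.168 in CD38+ control (SD, n = 3 each). GAD1 averaged 212 ± 3.68, 58.4 ± 2.44 and 4.44 ± 0.833 CPM, and ALDH1A1 46.7 ± 4.21, 6.05 ± 0.611 and 0.506 ± 0.306 CPM in the same groups.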
